A study of Homo sapiens with 9 samples.

Results

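The aldo-keto reductase genes AKR1B10, AKR1B1, AKR1C1, AKR1C2, AKR1C3, AKR1A1 and AKR7A2 were described in WiDr cells after transfection with siRNAs against the long non-coding RNA LIMp27. The 7 members were selected by gene symbol from the 25159 genes listed in the deposited tables, and 13 genes there have an AKR1 or AKR7 symbol. AKR1B10 was chosen because its transcript was lower with both LIMp27 siRNAs in these same libraries, so its values against control siRNA are given as a description with no test. WiDr is a p53-mutant line from a human colon adenocarcinoma. RNA-seq was carried out on cells that received 100 nM of LIMp27 siRNA-1, LIMp27 siRNA-2 or control siRNA for 24 h, with 3 libraries in each of the 3 groups, and the LIMp27 siRNAs are called siRNA-1 and siRNA-2 below. All groups were therefore 1 cell line under transient transfection, and the control cells were transfected as well. The libraries of a group were biological repeats by the study's own description, and the labels do not tie them to named cultures.

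Between 14361629 and 21524623 reads per library were counted to genes. LIMp27 itself, listed as LINC01356, had 0 reads of 56850936 with siRNA-1, 3 of 49388897 with siRNA-2 and 2 of 54350309 with control siRNA, with exact 95% Poisson intervals of 0 to 3.69, 0.619 to 8.77 and 0.242 to 7.22 reads that cover counting error only. A fall of the targeted transcript was therefore not detectable at this depth. The study itself reported LIMp27 knockdown by qPCR in the WiDr cells taken for RNA-seq. Of 12 colon epithelial markers 10 were listed, and they summed to 9574 to 9930 FPKM with siRNA-1 and 8242 to 9216 FPKM with siRNA-2, against 12288 to 13100 FPKM with control siRNA. KRT8, a keratin, stood at 4536 to 4830 FPKM with siRNA-1 and 3972 to 4480 FPKM with siRNA-2, against 6386 to 6872 FPKM with control siRNA. Other epithelial markers went the other way. EPCAM had 687 to 702 FPKM with siRNA-1 and 666 to 680 FPKM with siRNA-2, against 569 to 596 FPKM with control siRNA. VIL1 had 54 to 57.2 FPKM with siRNA-1 and 84.7 to 87.8 FPKM with siRNA-2, against 45.2 to 47.9 FPKM with control siRNA. The intestinal markers CDX2 and CDH17 were below 1 FPKM in every library. Of the 9 epithelial markers tested, 6 fell and 2 rose with siRNA-1, and 5 fell and 3 rose with siRNA-2. The shares of all genes tested that fell and rose were 28.3% and 26.5% with siRNA-1 and 29.0% and 27.7% with siRNA-2. Of 6 fibroblast markers 3 were listed, and only COL1A1 and LUM had values in all 3 groups. These summed to 1.63 to 2.81 FPKM with siRNA-1, 7.74 to 8.57 FPKM with siRNA-2 and 1.32 to 1.72 FPKM with control siRNA. With siRNA-2 most of the sum came from LUM (6.5 to 7.85 FPKM). The part of either marker group in the results was not tested.

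Aldo-keto reductases are soluble enzymes that use NADPH to reduce aldehydes and ketones to alcohols. The AKR1B enzymes reduce sugar, lipid and retinoid aldehydes, the AKR1C enzymes are hydroxysteroid dehydrogenases that also act on prostaglandins, and AKR1A1 and AKR7A2 reduce a broad range of aldehydes. AKR1B10 is expressed in normal intestinal epithelium, and AKR1B10 and the AKR1C genes are well-known targets of NRF2, the transcription factor of the oxidative stress response encoded by NFE2L2.

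AKR1B10 was the most abundant member per unit of length in control cells, whereas the highest member in cells with a LIMp27 siRNA depended on the length used. On the FPKM scale, which divides the reads of a gene by its length and the library's depth, the 7 members together reached 415 ± 9.65 with siRNA-1 and 717 ± 10.8 with siRNA-2, against 840 ± 23.2 with control siRNA (SD, n = 3 each). AKR1B10 made up 10.5% of this sum with siRNA-1 and 26.7% with siRNA-2, against 52.8% with control siRNA. In control cells the mean FPKM levels ran in the order AKR1B10 (443 ± 2.92), AKR1C3 (190 ± 15.5), AKR1A1 (103 ± 3.32), AKR1C1 (49 ± 1.65), AKR7A2 (36.7 ± 3.9), AKR1C2 (18.2 ± 2.28) and AKR1B1 (0.622 ± 0.174), with no overlap between neighbours in their 3 libraries.

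With siRNA-1 the order was AKR1C3 (145 ± 4.28 FPKM), AKR1A1 (138 ± 6.97 FPKM), AKR1B10 (43.7 ± 2.77 FPKM), AKR7A2 (43 ± 1.32 FPKM), AKR1C1 (33.8 ± 2.34 FPKM), AKR1C2 (10.2 ± 0.794 FPKM) and AKR1B1 (1.02 ± 0.238 FPKM). The libraries of AKR1C3 and AKR1A1 overlapped there, and so did those of AKR1B10 and AKR7A2, so that these neighbours could not be ordered. With siRNA-2 the order was AKR1C3 (238 ± 2.7 FPKM), AKR1B10 (191 ± 4.84 FPKM), AKR1A1 (170 ± 11 FPKM), AKR1C1 (56.7 ± 1.33 FPKM), AKR7A2 (40.4 ± 1.34 FPKM), AKR1C2 (20 ± 0.869 FPKM) and AKR1B1 (0.921 ± 0.287 FPKM), with no overlap between neighbours. The FPKM values rest on a shorter length than the deposited gene length, and per kilobase of that gene length the order changed. AKR1B10 then had 103 CPM per kilobase with siRNA-2 and AKR1C3 50.1, and with siRNA-1 AKR1A1 had 37.7 and AKR1C3 30.6, while AKR7A2 stood above AKR1C1 in all 3 groups. On that scale AKR1B10 made up 18.7% of the members' sum with siRNA-1 and 42.9% with siRNA-2, against 69.6% with control siRNA. Among 14248 protein-coding genes ranked by mean FPKM from the highest, AKR1B10 stood at 3227 with siRNA-1 and at 625 with siRNA-2, against 224 with control siRNA.

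**Figure D1:**
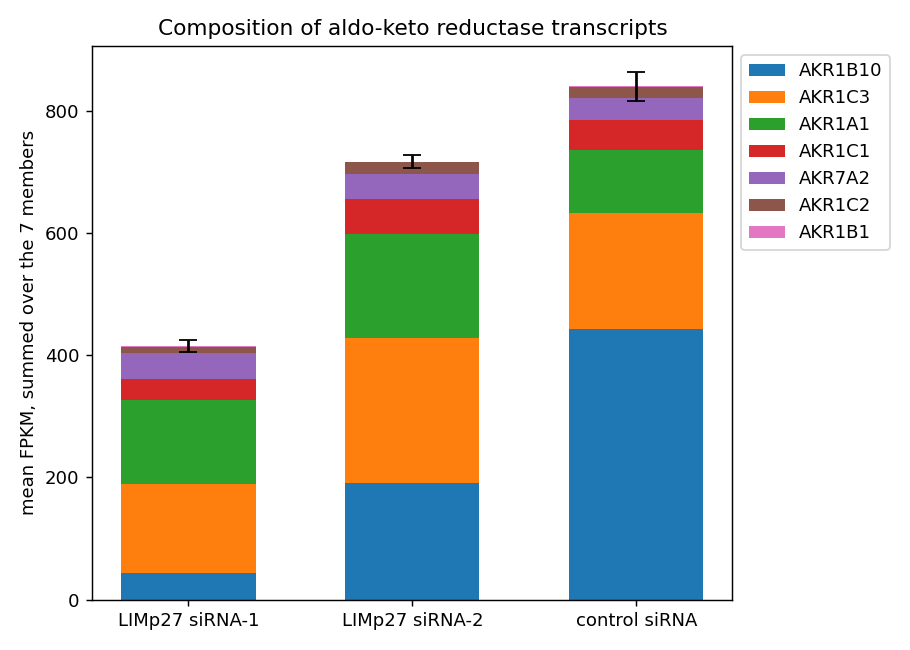
Stacked bars give the mean FPKM of each of the 7 members in cells with siRNA-1, siRNA-2 and control siRNA (n = 3 libraries each), and the error bar is the SD of the members' sum. The sums were 415, 717 and 840 FPKM, and the AKR1B10 segment at the bottom was the part that differed most in height.

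AKR1B10 encodes a cytosolic reductase with high activity on all-trans-retinal and on lipid aldehydes. The gene lies on the plus strand of chromosome 7 (chr7:134527592-134541408, GRCh38), and its longest coding transcript in GENCODE 29 has 10 exons. Its level in CPM (reads scaled to a common library size) with TMM scaling, called normalised CPM below, was 41.7, 37.1 and 41.4 in the libraries with siRNA-1 and 173, 174 and 181 in those with siRNA-2, against 438, 434 and 433 in those with control siRNA. The 3 groups stood far apart and the libraries of each group close together, with SDs of 2.59, 4.32 and 2.33 CPM. The mean was 9.22% of the control mean with siRNA-1 and 40.4% of it with siRNA-2. These correspond to log2 fold changes of −3.44 (standard error 0.0515) and −1.30 (standard error 0.0502). In bulk RNA such as this, fewer cells with the transcript and less transcript per cell cannot be told apart.

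Of the 14347 genes tested with siRNA-1, 7 had a lower log2 fold change than AKR1B10, and 351 of the 14204 genes tested with siRNA-2 did. AKR1B10 was chosen on these same falls, so nothing is read from its place among all genes. The 5 genes whose pattern lay nearest to it were FABP1, C4BPB, BIRC3, WWTR1 and EEF2, with Euclidean distances of 1.02, 1.32, 1.6, 1.74 and 1.74 over the 9 libraries in log2 CPM relative to the control mean, among 14024 genes compared. FABP1, a fatty acid-binding protein, was low in all groups and averaged 0.194 CPM with siRNA-1 and 0.62 CPM with siRNA-2, against 2.02 CPM with control siRNA. It did not pass the filter on low counts in the direct comparison of the siRNAs, so its likeness to AKR1B10 rests on few reads. BIRC3, an inhibitor of apoptosis, averaged 8.35 CPM with siRNA-1 and 19.9 CPM with siRNA-2, against 90.8 CPM with control siRNA. The likeness of EEF2, the translation elongation factor, rested on siRNA-1, since its log2 fold changes were −3.35 with siRNA-1 and −0.30 with siRNA-2.

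AKR1B1 encodes aldose reductase, which turns glucose into sorbitol, and it is the closest relative of AKR1B10 among the members, with 70.6% identical residues over the aligned proteins of 316 residues each. Both genes lie on chromosome 7, AKR1B1 on the minus strand (chr7:134442350-134459284, GRCh38). In contrast to AKR1B10, AKR1B1 was barely transcribed in these cells, with 7 to 22 reads per library. It had 0.887, 1.1 and 0.68 normalised CPM with siRNA-1 and 1.1, 0.636 and 0.682 CPM with siRNA-2, against 0.678, 0.669 and 0.394 CPM with control siRNA. The log2 fold changes of 0.61 with siRNA-1 (standard error 0.391, edgeR adjusted p = 0.197) and 0.51 with siRNA-2 (standard error 0.417, edgeR adjusted p = 0.3) did not pass the threshold of 0.05. The groups did not overlap with siRNA-1, by a margin of 0.68 against 0.678 CPM, and did overlap with siRNA-2.

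AKR1B15, the other AKR1B gene on chromosome 7, had 0 to 2 reads in each library and was not tested. Of the 50-base windows of the longest coding transcript of AKR1B10, 16.6% also occurred in another AKR gene, most often AKR1B15. The nearest gene tested on the side of AKR1B1 is SLC35B4, a nucleotide sugar transporter, which fell with both siRNAs, with log2 fold changes of −0.33 with siRNA-1 (edgeR adjusted p = 0.000452) and −0.42 with siRNA-2 (edgeR adjusted p = 4.3e-05). On the other side, BPGM, a red cell enzyme of glycolysis, had −0.17 with siRNA-1 (edgeR adjusted p = 0.146) and −0.03 with siRNA-2 (edgeR adjusted p = 0.827). The log2 fold change of AKR1B10 was larger in size than that of either neighbour with both siRNAs. AKR1B10 was chosen on those falls and the neighbours were not, so nothing is read from this contrast.

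**Figure D2:**
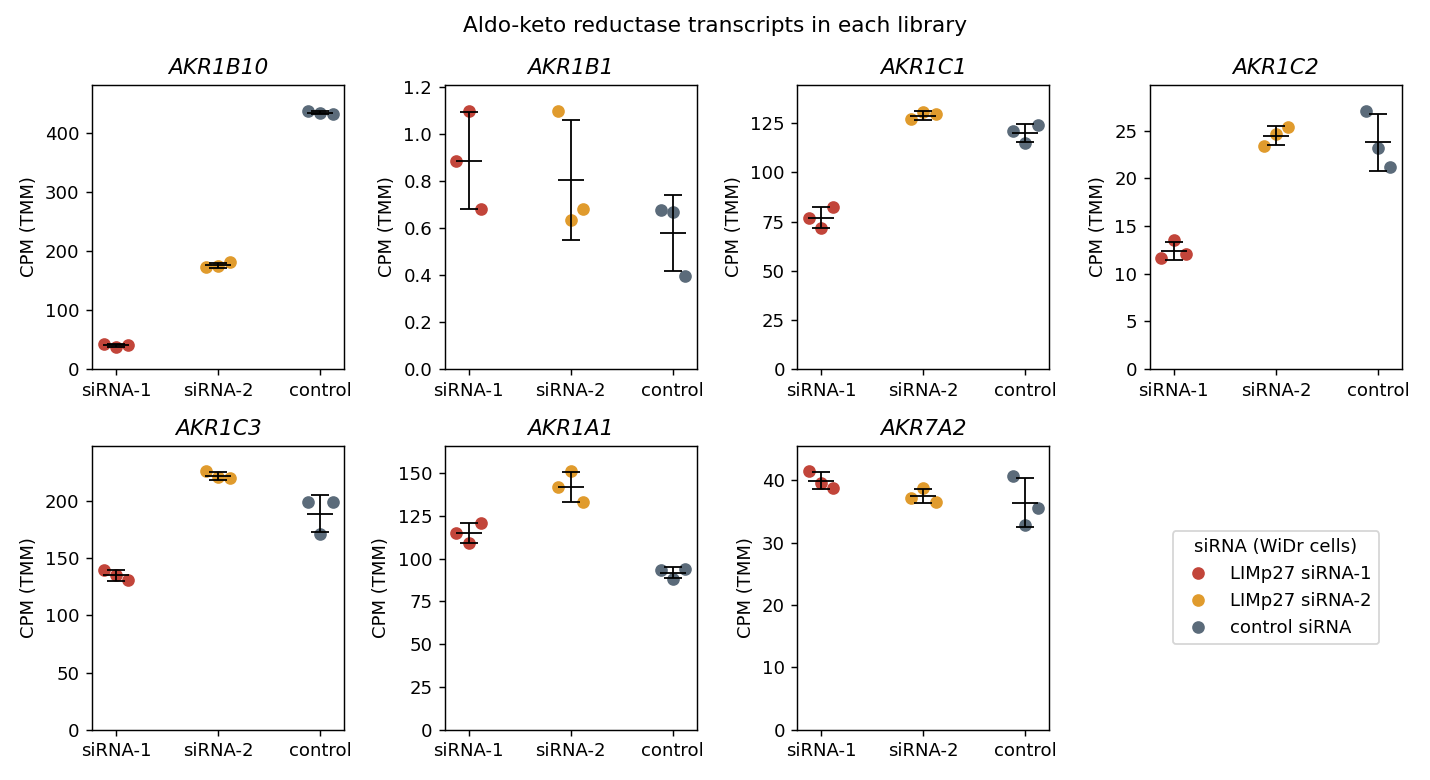
Each panel shows 1 member, with normalised CPM on a linear axis from 0, points for the 3 libraries of each siRNA, and bars for the mean ± SD. AKR1B10 separates all 3 groups (37.1 to 41.7, 173 to 181 and 433 to 438 CPM), whereas the AKR1C genes are low with siRNA-1 only and AKR7A2 is similar throughout.

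The AKR1C genes lie side by side on chromosome 10 and encode hydroxysteroid dehydrogenases of 323 residues. AKR1C1 and AKR1C2 differ at 7 residues (97.8% identical), and AKR1C3 is 87.9% identical to AKR1C1 and 87% identical to AKR1C2. The RefSeq promoters (GRCh38.p14) of the 3 genes are shown because all 3 transcripts fell with siRNA-1. Printed are the 150 bases that end just before each start site, with capitals for the CCAAT box, searched as CCAAT on both strands and found here on the opposite strand (ATTGG). AKR1C3 has a pair of annotated starts.
AKR1C1 (chr10:4963265-4963414, plus strand): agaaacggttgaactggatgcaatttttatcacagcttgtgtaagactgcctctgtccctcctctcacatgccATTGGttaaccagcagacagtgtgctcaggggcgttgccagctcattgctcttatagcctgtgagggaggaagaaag
AKR1C2 (chr10:5003858-5004007, minus strand): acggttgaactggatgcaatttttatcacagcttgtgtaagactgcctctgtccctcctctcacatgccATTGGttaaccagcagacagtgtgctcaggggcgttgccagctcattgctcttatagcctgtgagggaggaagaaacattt
AKR1C3 (chr10:5048631-5048780, plus strand): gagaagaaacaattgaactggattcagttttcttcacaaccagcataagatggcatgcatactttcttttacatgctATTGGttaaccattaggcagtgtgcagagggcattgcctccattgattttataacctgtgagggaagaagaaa
AKR1C3 (chr10:5094264-5094413, plus strand): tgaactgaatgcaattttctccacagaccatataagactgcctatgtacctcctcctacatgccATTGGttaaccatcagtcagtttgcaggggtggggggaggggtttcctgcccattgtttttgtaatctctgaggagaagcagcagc

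In these stretches AKR1C1 and AKR1C2 were 94.2% identical when aligned, and AKR1C1 was 72.1% and 67.9% identical to the AKR1C3 stretches in the order printed. The CCAAT box began 77 bases before the start site in AKR1C1, 81 bases before it in AKR1C2, and 73 and 86 bases before the starts of AKR1C3. A CCAAT box occurred in 34.6% of the 35116 promoters in the table, which run from 250 bases before the start to 50 bases after it. The letters TGACNNNGC, the core of the antioxidant response element to which NRF2 binds, occurred in 13.3% of these promoters on either strand. They had 0 matches in the promoters of the AKR1C genes, AKR1B1 and AKR1A1 and 3 in that of AKR7A2, and no match says only that these letters are not in the window. Promoters were found for 6 of the 7 members, all but AKR1B10.

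The 3 AKR1C transcripts fell with siRNA-1, whereas with siRNA-2 AKR1C3 rose slightly and AKR1C1 and AKR1C2 did not pass the threshold. AKR1C1, which inactivates progesterone, had 76.7, 71.9 and 82.4 normalised CPM with siRNA-1 and 127, 131 and 130 CPM with siRNA-2, against 121, 115 and 124 CPM with control siRNA. Its log2 fold change was −0.63 with siRNA-1 (standard error 0.0531, edgeR adjusted p = 3.43e-11) and 0.12 with siRNA-2 (standard error 0.0554, edgeR adjusted p = 0.0635). All siRNA-1 libraries lay below all control libraries, and all siRNA-2 libraries lay above them by a small margin. Without replicate 3 of both groups the siRNA-2 value passed the threshold, at 0.14 (edgeR adjusted p = 0.0436).

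AKR1C2, which inactivates dihydrotestosterone, was the least abundant of the 3 genes, with 11.6, 13.5 and 12.1 normalised CPM with siRNA-1 and 23.4, 24.7 and 25.4 CPM with siRNA-2, against 27.1, 23.2 and 21.2 CPM with control siRNA. The siRNA-1 libraries lay at 52.1% of the control mean and apart from the control libraries, while those with siRNA-2 lay among them. The log2 fold changes were −0.94 with siRNA-1 (standard error 0.0963, edgeR adjusted p = 2.03e-09) and 0.05 with siRNA-2 (standard error 0.0927, edgeR adjusted p = 0.694).

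AKR1C3, which makes testosterone and prostaglandin F, had 140, 135 and 131 normalised CPM with siRNA-1 and 226, 221 and 220 CPM with siRNA-2, against 199, 171 and 199 CPM with control siRNA. Neither LIMp27 siRNA group overlapped with the control group, the siRNA-1 libraries being below it and the siRNA-2 libraries above it. The log2 fold change was −0.48 with siRNA-1 (standard error 0.0522, edgeR adjusted p = 5.86e-09) and 0.24 with siRNA-2 (standard error 0.0572, edgeR adjusted p = 0.000751).

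The assignment of reads among these genes is uncertain, and the counting rule for shared reads is not given in the sources used here. Windows of 50 bases were taken from the longest coding transcript of each gene. Of these, 52.2% for AKR1C2, 28.7% for AKR1C1 and 12.1% for AKR1C3 occurred in another AKR gene. The shares hold for that 1 transcript per gene. The sum of the 3 genes does not depend on how the counted reads are shared out among them. Any shared reads that were left uncounted would still be missing from it. The sum was 225 ± 3.77 CPM with siRNA-1 and 376 ± 0.812 CPM with siRNA-2, against 333 ± 21.3 CPM with control siRNA (SD, n = 3 each). With the reads summed before the test, the log2 fold change with siRNA-2 was 0.18 (edgeR adjusted p = 0.00329), so that the sum rose although AKR1C1 and AKR1C2 singly did not pass. AKR1C3 took 58.1% to 61.3% of the sum with siRNA-1 and 58.6% to 60.1% with siRNA-2, against 55.3% to 57.8% with control siRNA. The nearest tested protein-coding genes outside the family lie at some distance from the AKR1C genes, which run from chr10:4963253 to chr10:5107686. KLF6, a transcription factor gene before them (chr10:3775996-3785281), had log2 fold changes of −0.01 with siRNA-1 (edgeR adjusted p = 0.804) and −0.05 with siRNA-2 (edgeR adjusted p = 0.419). TUBAL3, a tubulin-like gene after the AKR1C genes (chr10:5393098-5404830), had −0.27 with siRNA-1 (edgeR adjusted p = 0.336). It fell by 0.67 on the log2 scale with siRNA-2 (edgeR adjusted p = 0.0184).

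AKR1A1, the aldehyde reductase that turns glucuronate into gulonate, rose with both siRNAs. The gene lies on the plus strand of chromosome 1 (chr1:45550543-45570049, GRCh38). None of the 50-base windows of its longest coding transcript occurred in another AKR gene. It had 115, 109 and 121 normalised CPM with siRNA-1 and 142, 151 and 133 CPM with siRNA-2, against 93.6, 87.9 and 94 CPM with control siRNA. Every library with either siRNA lay above every control library. The log2 fold change was 0.33 with siRNA-1 (standard error 0.0505, edgeR adjusted p = 2.26e-06) and 0.64 with siRNA-2 (standard error 0.0595, edgeR adjusted p = 2.92e-10).

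AKR7A2, which reduces succinic semialdehyde and aflatoxin dialdehyde, did not pass the threshold with either siRNA. It lies on the minus strand of chromosome 1 (chr1:19303965-19312146, GRCh38) and encodes 359 residues. It had 41.4, 39.5 and 38.8 normalised CPM with siRNA-1 and 37.2, 38.7 and 36.5 CPM with siRNA-2, against 40.7, 32.8 and 35.6 CPM with control siRNA. Both groups overlapped with control, and the log2 fold changes were 0.13 with siRNA-1 (standard error 0.0701, edgeR adjusted p = 0.11) and 0.05 with siRNA-2 (standard error 0.0792, edgeR adjusted p = 0.613). The first passed the threshold without control replicate 1, the highest control library, at a log2 fold change of 0.23 (edgeR adjusted p = 0.0131), and without replicate 1 of both groups, at 0.20 (edgeR adjusted p = 0.0485).

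With AKR1B10 left out of the counts against control, since it was selected on those values, 3 of the 6 other members were called lower with siRNA-1, where 28.3% of the 14347 genes tested were called lower, and 1 was called higher, where 26.5% of genes were. The libraries of the groups did not overlap for 5 of the 6, where this held for 59.7% of genes. With siRNA-2, 0 of the 6 were called lower by edgeR, where 29.0% of the 14204 genes tested were, and 2 were called higher, where 27.7% of genes were. At an unadjusted p under 0.05, and with DESeq2, the count lower was also 0. The groups did not overlap for 3 of the 6, where this held for 61.2% of genes. Since more than 1 in 4 genes were called in each direction, nothing is read from the counts about the members as a set. The same control libraries served in both comparisons.

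The LIMp27 siRNAs were also compared directly. AKR1B10, AKR1C1, AKR1C2, AKR1C3 and AKR1A1 were all higher with siRNA-2 than with siRNA-1. With AKR1B10 left out, 4 of the 6 other members were higher, where 23.1% of the 14415 genes tested were. Of the same 6, 0 were lower with edgeR, where 22.4% of genes were. At an unadjusted p under 0.05, and with DESeq2, the count lower was also 0. The log2 difference was 2.15 for AKR1B10 (standard error 0.0604, edgeR adjusted p = 1.71e-22), and 19 of the genes tested had a larger one. AKR1B10 was chosen on falls measured in these same libraries, so this test is not independent of the choice. The log2 difference was 0.76 for AKR1C1 (standard error 0.0584, edgeR adjusted p = 3e-12), 0.99 for AKR1C2 (standard error 0.0913, edgeR adjusted p = 1.7e-10) and 0.73 for AKR1C3 (standard error 0.0511, edgeR adjusted p = 4.4e-13). These differences between the siRNAs were larger than the spread between libraries, so that the AKR1C genes responded differently to them. For AKR1A1 the log2 difference was 0.32 (standard error 0.0577, edgeR adjusted p = 3.82e-05), in the direction of its rise against control. AKR1B1 and AKR7A2 had log2 differences of −0.08 (edgeR adjusted p = 0.887) and −0.07 (edgeR adjusted p = 0.404). With AKR1B10 left out, the libraries did not overlap for 5 of the 6 other members, all but AKR1B1, where this held for 52.5% of genes. The AKR1C genes share long stretches of sequence, and nothing is read from these counts about the members as a set.

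**Figure D3:**
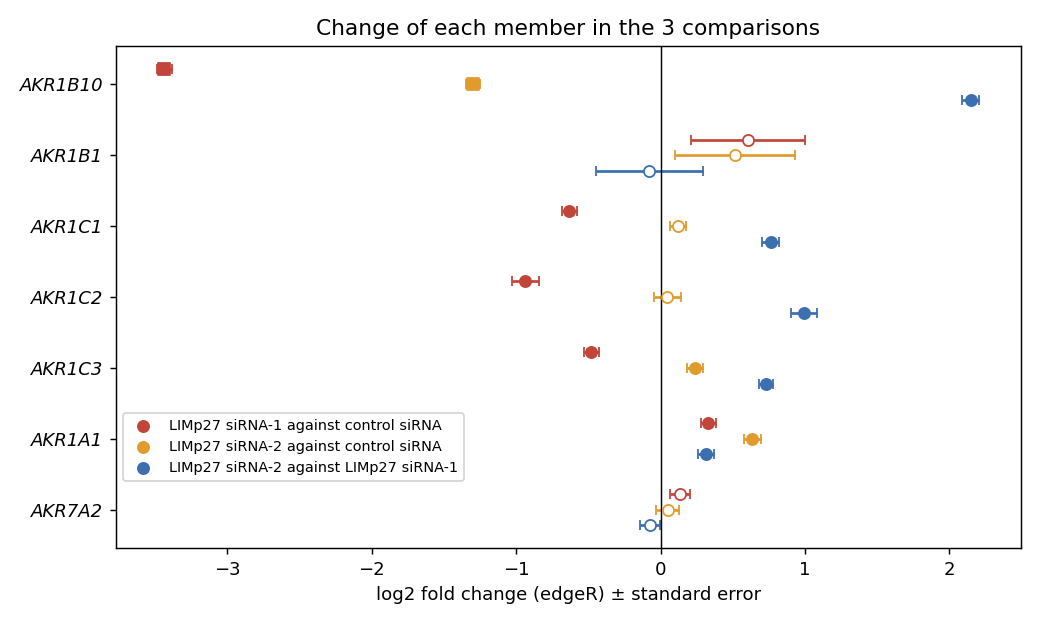
For each member the points give the log2 fold change and the bars its standard error, for each LIMp27 siRNA against control siRNA and for siRNA-2 against siRNA-1 (filled circles, edgeR adjusted p under 0.05; open circles, not; squares, AKR1B10 against control, not tested). The AKR1C genes lie below 0 with siRNA-1 (−0.94 to −0.48) and between 0.05 and 0.24 with siRNA-2.

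The remaining family genes with at least 10 reads in a table were weakly expressed. AKR7A3, a further aflatoxin aldehyde reductase, averaged 8.04 CPM with siRNA-1 and 8.45 CPM with siRNA-2, against 9.14 CPM with control siRNA, and did not pass the threshold (edgeR adjusted p = 0.252 and 0.551). AKR7L, a polymorphic pseudogene beside it, had a log2 fold change of −0.50 with siRNA-1 (edgeR adjusted p = 0.153) and fell by 0.96 on the log2 scale with siRNA-2 (standard error 0.3, edgeR adjusted p = 0.00814). The pseudogene AKR1C7P had 17 reads over all libraries. The potassium channel subunits KCNAB1, KCNAB2 and KCNAB3, which share the aldo-keto reductase fold, averaged below 3 CPM in every group. KCNAB2 rose by 1.20 on the log2 scale with siRNA-1 (edgeR adjusted p = 0.000649) and KCNAB3 by 1.04 (edgeR adjusted p = 0.00586). With siRNA-2 their log2 fold changes were −0.17 and 0.31 (edgeR adjusted p = 0.721 and 0.489). KCNAB1, not tested with siRNA-1, had 19, 22 and 12 reads with siRNA-2, against 5, 8 and 2 with control siRNA. It passed the filter on low counts only through the siRNA-2 libraries, where it is high. Its log2 fold change of 1.85 with siRNA-2 is therefore given as a description with no test.

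Of 25 other NRF2 target genes, 16 fell and 3 rose with siRNA-1, where 28.3% of all genes tested fell and 26.5% rose, at a median log2 fold change of −0.35 against 0.001 over all genes. With siRNA-2, 17 fell and 5 rose, where 29.0% and 27.7% of all genes did, at a median of −0.27 against 0.012. Between the siRNAs, 10 of the 25 were higher and 7 lower with siRNA-2 than with siRNA-1, where 23.1% and 22.4% of all genes were, at a median of 0.12 against 0.012. TXNRD1, thioredoxin reductase, had log2 fold changes of −1.39 with siRNA-1 and −0.70 with siRNA-2, and PRDX1, a peroxiredoxin, had −1.19 with siRNA-1 and −0.17 with siRNA-2. Both fell more with siRNA-1 in the direct comparison (edgeR adjusted p = 2.53e-11 for TXNRD1 and 1.78e-16 for PRDX1), as AKR1B10 did. NQO1, a quinone reductase often used as a readout of NRF2, fell more with siRNA-2, with −0.47 (standard error 0.044, edgeR adjusted p = 2.57e-10) with siRNA-1 and −2.48 (standard error 0.06, edgeR adjusted p = 5.17e-23) with siRNA-2, and its direct difference of −2 (edgeR adjusted p = 6.27e-22) was opposite in sign to that of AKR1B10. The glutathione genes GCLC and GSR likewise fell more with siRNA-2, with −1.18 and −1.12, than with siRNA-1, with −0.75 and −0.47 (edgeR adjusted p of the difference 7.23e-07 and 3.24e-11). NFE2L2 itself fell by 0.79 on the log2 scale with siRNA-1 and by 0.40 with siRNA-2 (edgeR adjusted p = 1.1e-13 and 6.9e-07). Of the 6 NRF2 regulators listed, NFE2L2 included, 5 fell and 1 rose with siRNA-1, MAFF (−0.33) and MAFK (−0.31) among them, and 1 fell with siRNA-2.

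**Figure D4:**
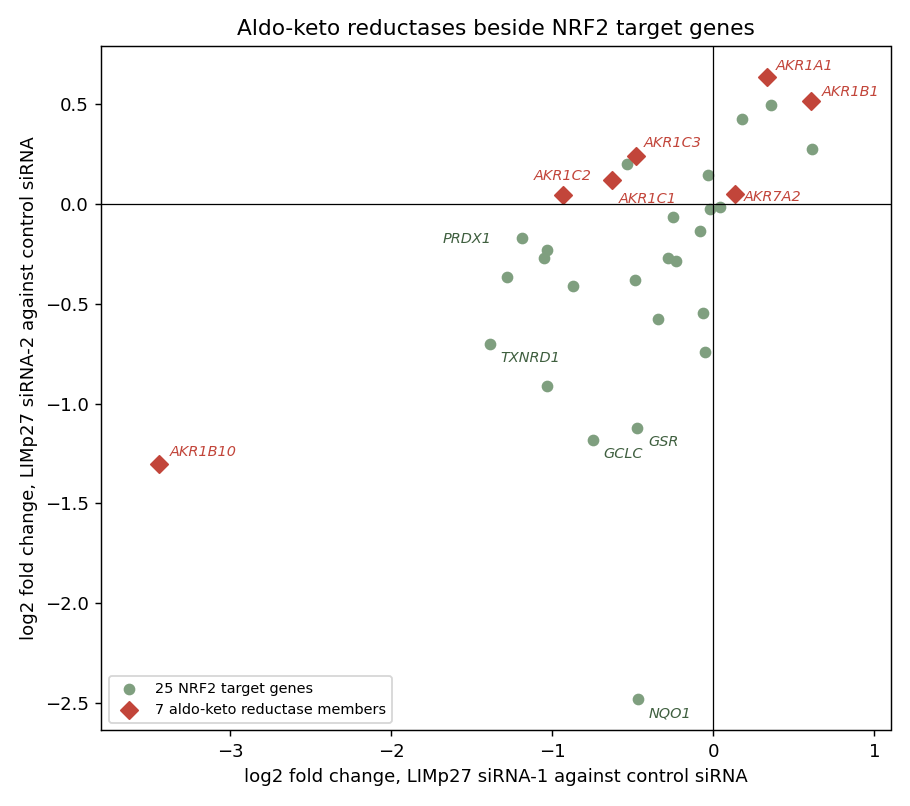
Each point is 1 gene, with its log2 fold change for siRNA-1 against control siRNA on the x axis and for siRNA-2 against control siRNA on the y axis; diamonds are the 7 members and circles 25 other NRF2 target genes, and the axes share the control libraries. AKR1B10 stands apart on the left (−3.44 and −1.30) and NQO1 at the bottom (−0.47 and −2.48), while the AKR1C genes lie left of 0 and near or above 0 on the y axis.

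Among other carbonyl-metabolising enzymes, genes moved in both directions, and the shares of all genes that fell and rose were, as above, 28.3% and 26.5% with siRNA-1 and 29.0% and 27.7% with siRNA-2. Of 29 carbonyl reductases and aldehyde dehydrogenases tested, 10 fell and 12 rose with siRNA-1 (median log2 fold change 0.03) and 10 fell and 11 rose with siRNA-2 (median 0.11). The aldehyde dehydrogenases of lipid aldehydes ALDH3A1 and ALDH3A2 fell with both, with log2 fold changes of −1.79 and −1.07 with siRNA-1 and of −0.75 and −0.75 with siRNA-2 (edgeR adjusted p between 1.29e-17 and 6.21e-07). ALDH1A1, which oxidises retinal, had 175 ± 12.7 normalised CPM with siRNA-1 and 396 ± 33.2 CPM with siRNA-2, against 330 ± 27.5 CPM with control siRNA (SD, n = 3 each), and was, like AKR1C3, lower with the first and higher with the second (log2 fold changes −0.91 and 0.27, edgeR adjusted p = 2.16e-14 and 0.000366). ADH5, the glutathione-dependent formaldehyde dehydrogenase, had log2 fold changes of 0.18 with siRNA-1 and −1.02 with siRNA-2, and ALDH18A1, of proline synthesis, had −0.15 with siRNA-1 and −0.50 with siRNA-2. Of the retinoid genes, 4 of 16 fell and 5 rose with siRNA-1 and 6 of 17 fell and 6 rose with siRNA-2. ALDH1A3, a further retinal dehydrogenase, fell by 0.85 with siRNA-1 (edgeR adjusted p = 1.97e-13) and had 0.02 with siRNA-2 (edgeR adjusted p = 0.836). The retinol dehydrogenase genes RDH13 and RDH14 had −0.55 and 0.16 with siRNA-1 and −0.37 and −0.99 with siRNA-2, of which the RDH14 value with siRNA-1 did not pass (edgeR adjusted p = 0.141). RETSAT, retinol saturase, rose by 0.16 with siRNA-1 and by 0.49 with siRNA-2. CRABP2, a retinoic acid-binding protein, had 0.16 with siRNA-1 and −0.72 with siRNA-2.

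Of the 22 steroid and prostaglandin genes tested, 10 fell and 3 rose with siRNA-1 (median log2 fold change −0.17) and 10 fell and 7 rose with siRNA-2 (median −0.17). Of all genes tested, 28.3% fell and 26.5% rose with siRNA-1, and 29.0% fell and 27.7% rose with siRNA-2. HPGD and HSD17B2 fell with both siRNAs. HPGD, which oxidises prostaglandins, averaged 7.33 ± 0.392 normalised CPM with siRNA-1 and 3.88 ± 0.408 CPM with siRNA-2, against 20.2 ± 2.12 CPM with control siRNA (SD, n = 3 each). HSD17B2, which oxidises estradiol and testosterone, averaged 7.26 ± 0.942 CPM with siRNA-1 and 7.89 ± 0.492 CPM with siRNA-2, against 27.1 ± 4.05 CPM with control siRNA (SD, n = 3 each). The log2 fold changes with siRNA-1 and siRNA-2 were −1.45 and −2.36 for HPGD and −1.89 and −1.77 for HSD17B2 (edgeR adjusted p between 3.76e-15 and 1.67e-12). HSD17B12, of fatty acid elongation, had −0.09 with siRNA-1, which did not pass (edgeR adjusted p = 0.22), and −1.26 with siRNA-2. ABCC4, a prostaglandin exporter, had −0.70 with siRNA-1 and 0.12 with siRNA-2, of which the second did not pass (edgeR adjusted p = 0.0922).

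AKR1A1 and AKR1B1 act in the glucuronate and polyol routes. Of 7 further genes of these routes tested, 3 fell and 1 rose with siRNA-1, and 4 fell and 1 rose with siRNA-2, beside the same shares of all genes as for the steroid genes. SORD, sorbitol dehydrogenase, had log2 fold changes of −0.57 with siRNA-1 and −0.36 with siRNA-2. UGDH, which makes UDP-glucuronate and was also counted among the NRF2 targets, had −1.03 with siRNA-1 and −0.23 with siRNA-2, and UGP2, which makes UDP-glucose, had −0.49 with siRNA-1 and −0.18 with siRNA-2. DCXR, the xylulose reductase, rose by 0.26 with siRNA-1 and by 0.52 with siRNA-2. Of 11 genes of NADPH supply, 5 fell and 3 rose with siRNA-1 and 5 fell and 5 rose with siRNA-2. MTHFD2, a mitochondrial folate enzyme, had log2 fold changes of −0.46 with siRNA-1 and −0.90 with siRNA-2. The isocitrate dehydrogenases IDH1 and IDH2 had 0.09 and 0.41 with siRNA-1 and −0.70 and 0.16 with siRNA-2, of which the first did not pass (edgeR adjusted p = 0.0961).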

How the data were processed

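RNA was sequenced from WiDr cells with LIMp27 siRNA-1, LIMp27 siRNA-2 or control siRNA (3 libraries each), in strand-specific libraries. For each LIMp27 siRNA the authors deposited a table against control, and the control counts were equal in both for all 22741 genes the tables share. The deposited read counts are whole numbers with no normalization. The submitters' notes name CASAVA and GRCh38; the aligner and counter are not given in the sources used here. The authors' normalized signal, read counts scaled per library, was left unused. The deposited FPKM values, scaled by the authors to gene length and depth, were used only for levels. Columns of log2 ratios and p-values deposited by the authors hold their own comparisons and were left unused.

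Counts were tested with edgeR 4.0.16 in R 4.3.3 (TMM scaling, filterByExpr with a minimum count of 10, quasi-likelihood test), each comparison on its own 6 libraries, and adjusted by Benjamini and Hochberg over all genes tested at a threshold of 0.05. The standard error is the log2 estimate over the root of its F statistic. The procedure was tested on counts simulated from its own fitted dispersions, which cannot show that the model suits these libraries. No library was left out. Replicates of each group differed by more than sampling noise (chi-square per degree of freedom 2.77 to 6.37). Gene positions and exons are from GENCODE 29, promoters from RefSeq (GRCh38.p14), and identities were computed with Biopython 1.88 from GENCODE transcripts. Alternatives were RLE size factors, DESeq2 1.42.0, no filter on low counts, a replicate block, 1 fit over all 9 libraries, summing the AKR1C genes and AKR1B10 with AKR1B15, counts per kilobase of the deposited gene length, and leaving out libraries.

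The genes named are the 7 members, other AKR1, AKR7 and KCNAB genes with at least 10 reads in a table, the neighbours of the AKR1B and AKR1C genes, the 5 genes nearest to AKR1B10 (pseudocount 0.01 CPM), and per list the 3 called genes of smallest adjusted p with each siRNA. A gene that this rule names is not reported here. The members and lists were chosen with earlier results of these data known.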

Additional observations from a re-analysis of the deposited data

Results flagged for a closer look

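The direct comparison of siRNA-2 with siRNA-1 found a different response to the siRNAs for 5 members, which brought them here. The log2 difference was 2.15 for AKR1B10, which was lower than control with both siRNAs and lowest with siRNA-1, and which was chosen on falls in these same libraries, so that this difference is not independent of the choice. It was 0.76 for AKR1C1, 0.99 for AKR1C2 and 0.73 for AKR1C3, each lower than control with siRNA-1 only. It was 0.32 for AKR1A1, which was above control with both.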

How the results depend on the processing

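RLE size factors, DESeq2, no filter on low counts, the replicate block and 1 fit over all 9 libraries changed no call of a member and no direction. With the replicate block the log2 fold change of AKR1B10 was −3.44 with siRNA-1 and −1.30 with siRNA-2, and of the 6 other members 3 were lower and 1 higher with siRNA-1 and 0 lower and 2 higher with siRNA-2. Same-numbered libraries correlated at −0.087 to 0.068 in their deviations from the group means, and differently numbered ones at −0.116 to 0.131. No pairing by number was seen, but with 3 libraries per group these values cannot exclude it. When 1 replicate number or library was left out, the members higher with siRNA-1 numbered 1 to 2 and those higher with siRNA-2 numbered 2 to 3, through AKR7A2 (0.20 without replicate 1 and 0.23 without control replicate 1) and AKR1C1 (0.14, edgeR adjusted p = 0.0436, without replicate 3). With siRNA-2 the log2 fold change of AKR7A2 turned to −0.0482 without replicate 2 and −0.0274 without control replicate 2, and that of AKR1C2 to −0.0643 without replicate 3 and −0.0407 without control replicate 3, none called. The AKR1B1 difference between the siRNAs ran over all such fits between −0.404 and 0.251, changed sign in 4 of them (0.251, 0.0654, 0.015 and 0.106) and rests on 7 to 22 reads per library. Summing the AKR1C genes gave 0.18 with siRNA-2, past the threshold. Per kilobase of the deposited gene length, control levels were 238 for AKR1B10, 39.9 for AKR1C3, 28.1 for AKR1A1, 19.5 for AKR7A2, 13 for AKR1C1, 3.52 for AKR1C2 and 0.152 for AKR1B1, which put AKR7A2 above AKR1C1. On that scale AKR1B10 (103) exceeded AKR1C3 (50.1) with siRNA-2, and AKR1A1 (37.7) exceeded AKR1C3 (30.6) with siRNA-1. Depth limited AKR1B1, AKR1B15 and LINC01356.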
